A study of Mus musculus with 6 samples.

Results

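*Nr2e1* (TLX), *Nr2f1* (COUP-TFI) and *Nr2f2* (COUP-TFII) encode orphan nuclear receptors of the NR2 subfamily, and the open chromatin around these 3 genes was examined in cultured neural stem cells (NSCs) of the adult mouse subependymal zone (SEZ). The peaks taken were those overlapping a gene body or the 100 kb on either side of it in GENCODE M21 on GRCm38. Peaks of 6 libraries that overlapped by at least 1 bp were merged, which gave 44 regions in the 3 windows out of 119719 regions on the assembled chromosomes, with 12 at *Nr2e1*, 16 at *Nr2f1* and 16 at *Nr2f2*. Accessibility was profiled by ATAC-seq, which uses a transposase to insert sequencing adapters where chromatin is open. All cultures carried the CRISPR-Cas9 deletion of *Srr2*, an enhancer of *Sox2* (*Srr2*del/del), and came from mice 10 weeks old. The PROLIF libraries (replicates 1, 2 and 4) were made from cells grown for 2 days in vitro (DIV) with FGF on Matrigel. The DIFF libraries (replicates 1, 2 and 4) were made after 1 further day in which mitogens were withdrawn and 2% fetal bovine serum was added, so the loss of mitogens and the serum cannot be told apart. Wild-type cultures were not analysed here, so every comparison is between states of mutant cells. The study bred mutant mice from more than a single founder strain, and which strain gave each culture is not stated in the sources used here. In bulk material a weaker signal in all cells and the loss of signal from some cells cannot be told apart.

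Nuclear receptors are transcription factors with a zinc-finger domain for DNA and a ligand-binding domain, and orphan members have no established natural ligand. TLX keeps adult neural stem cells self-renewing and acts mainly as a repressor together with histone deacetylases and the demethylase LSD1 (*Kdm1a*). COUP-TFI and COUP-TFII pattern the cortex, take part in interneuron development and in the passage of progenitors from making neurons to making glia, and bind pairs of AGGTCA-like sites, often as direct repeats. Binding and expression were not measured in these libraries.

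The lists held 59792 to 82552 peaks in PROLIF and 70578 to 87728 in DIFF. Read totals were not used, and the background pileup of each library, solved from the peaks' fold enrichment and p, stood in for depth. It was 2.85 to 2.97 reads in PROLIF, and 3.63, 2.96 and 6.01 reads in DIFF replicates 1, 2 and 4, so DIFF replicate 4 stood apart as the deepest library, with the longest list and the lowest median fold enrichment (4.28). Fold enrichment is the pileup at a summit over the local background of the same library. The percentile is the rank of a peak by −log10 p within its own list, where 100 is the strongest. Where no peak is listed, the signal did not pass the caller's threshold. As for cell type, 8 of 8 stem and progenitor genes, *Sox2* and *Nes* among them, had a peak within 3 kb of a transcription start site (TSS) in all 6 libraries, against 2 of 4 neuron, 2 of 4 oligodendrocyte, 2 of 5 microglia and 1 of 4 endothelial genes and 64.4% of all 21938 protein-coding genes. The oligodendrocyte gene *Sox10*, the neuronal *Dcx*, the microglial *Cx3cr1* and the endothelial *Cldn5* and *Cdh5* had no promoter peak in any library.

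*Nr2e1* (ENSMUSG00000019803.11) lies on the minus strand of chromosome 10 from 42561963 to 42583632. Its first base is separated by 189 bases from a start site of *Ostm1*, a gene of lysosomal chloride transport, which runs the other way. All 6 promoter summits fell between these start sites. The whole stretch between them is shown for that reason, read 5′ to 3′ on the plus strand of GRCm38, at chr10:42583633-42583821. None of the motifs searched occurred in it, so it holds no capitals.

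Nr2e1 promoter: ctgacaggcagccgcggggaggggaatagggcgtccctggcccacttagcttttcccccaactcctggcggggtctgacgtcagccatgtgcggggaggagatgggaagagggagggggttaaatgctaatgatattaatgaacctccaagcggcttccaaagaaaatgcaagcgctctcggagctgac

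*Nr2f1* (ENSMUSG00000069171.14) lies on the minus strand of chromosome 13 from 78188973 to 78199757, and *Nr2f2* (ENSMUSG00000030551.14) on the minus strand of chromosome 7 from 70351944 to 70366735. The promoter region with the highest mean percentile of each is shown (region 13 of *Nr2f1* and region 10 of *Nr2f2*), because these share sequence. At *Nr2f1* the choice was narrow, since region 14 ranked above region 13 in DIFF replicates 1 and 2. The 201 bases around each summit are given on the plus strand, at chr13:78200381-78200581 and chr7:70361752-70361952. Capitals mark the longest run of letters common to both.

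Nr2f1 promoter: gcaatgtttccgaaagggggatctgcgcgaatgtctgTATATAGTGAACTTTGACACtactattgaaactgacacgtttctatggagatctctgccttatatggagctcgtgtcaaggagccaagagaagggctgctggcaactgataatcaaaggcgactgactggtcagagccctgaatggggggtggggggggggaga

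Nr2f2 promoter: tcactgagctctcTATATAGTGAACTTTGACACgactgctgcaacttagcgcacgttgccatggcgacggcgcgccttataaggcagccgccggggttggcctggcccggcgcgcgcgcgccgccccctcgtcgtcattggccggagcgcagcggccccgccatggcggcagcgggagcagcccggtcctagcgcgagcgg

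The shared run was 20 bases long, and the next longest was 8 bases. On the assembled chromosomes of GRCm38 the run occurred at 2 places on either strand, which were these promoters. It began 661 bp upstream of the annotated 5′ end of *Nr2f1*. At *Nr2f2* it began 4970 bp downstream of the annotated 5′ end and upstream of the start of a shorter transcript. The summits of the regions, rather than the run itself, were annotated. They lay in an exon of the antisense transcript *A830082K12Rik* and in an intron of *Nr2f2*. The peaks of all 6 libraries held the run at both genes. Summits lay 40 to 189 bp from it at *Nr2f1* and 50 to 69 bp from it at *Nr2f2*. Within the run, the letters TGAACTTTGACAC differed at 3 of 12 positions from a direct repeat of AGGTCA with 1 base between (DR1), read on the minus strand. A match this close or closer was found within 100 bp of the summit in 16.4% of all 119719 regions, so it is common. This comparison of sequences was made after the regions had been chosen.

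Peaks in each window were counted to compare the extent of open chromatin between PROLIF and DIFF. *Nr2e1* held 8, 7 and 8 peaks in PROLIF and 7, 8 and 8 in DIFF replicates 1, 2 and 4. The counts overlapped, with 7.67 ± 0.577 in both states (SD, n = 3; two-sided exact permutation test, p = 1). *Nr2f1* held 15, 11 and 10 peaks in PROLIF and 10, 11 and 10 in DIFF. PROLIF replicate 1 was high and the other libraries were alike, with means of 12 ± 2.65 and 10.3 ± 0.577 (SD, n = 3; exact permutation p = 0.7). *Nr2f2* held 14, 11 and 10 peaks in PROLIF and 9, 8 and 11 in DIFF. Here 2 DIFF libraries fell below every PROLIF library and DIFF replicate 4 did not, with means of 11.7 ± 2.08 and 9.33 ± 1.53 (SD, n = 3; exact permutation p = 0.3). The smallest p that this design allows is 0.1. Without PROLIF replicate 1 the difference of -1.67 peaks at *Nr2f1* was -0.167 and that of -2.33 at *Nr2f2* was -1.17. Peaks covered 4590 ± 302 and 4891 ± 574 bp at *Nr2e1*, 5088 ± 659 and 4810 ± 284 bp at *Nr2f1* and 4846 ± 475 and 4630 ± 156 bp at *Nr2f2* in PROLIF and DIFF (SD, n = 3; exact permutation p = 0.5, 0.6 and 0.7). For scale, the windows held 5.41, 7.59 and 7.45 merged regions per 100 kb, against a median of 6.27 over the windows of all protein-coding genes.

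**Figure D1:**
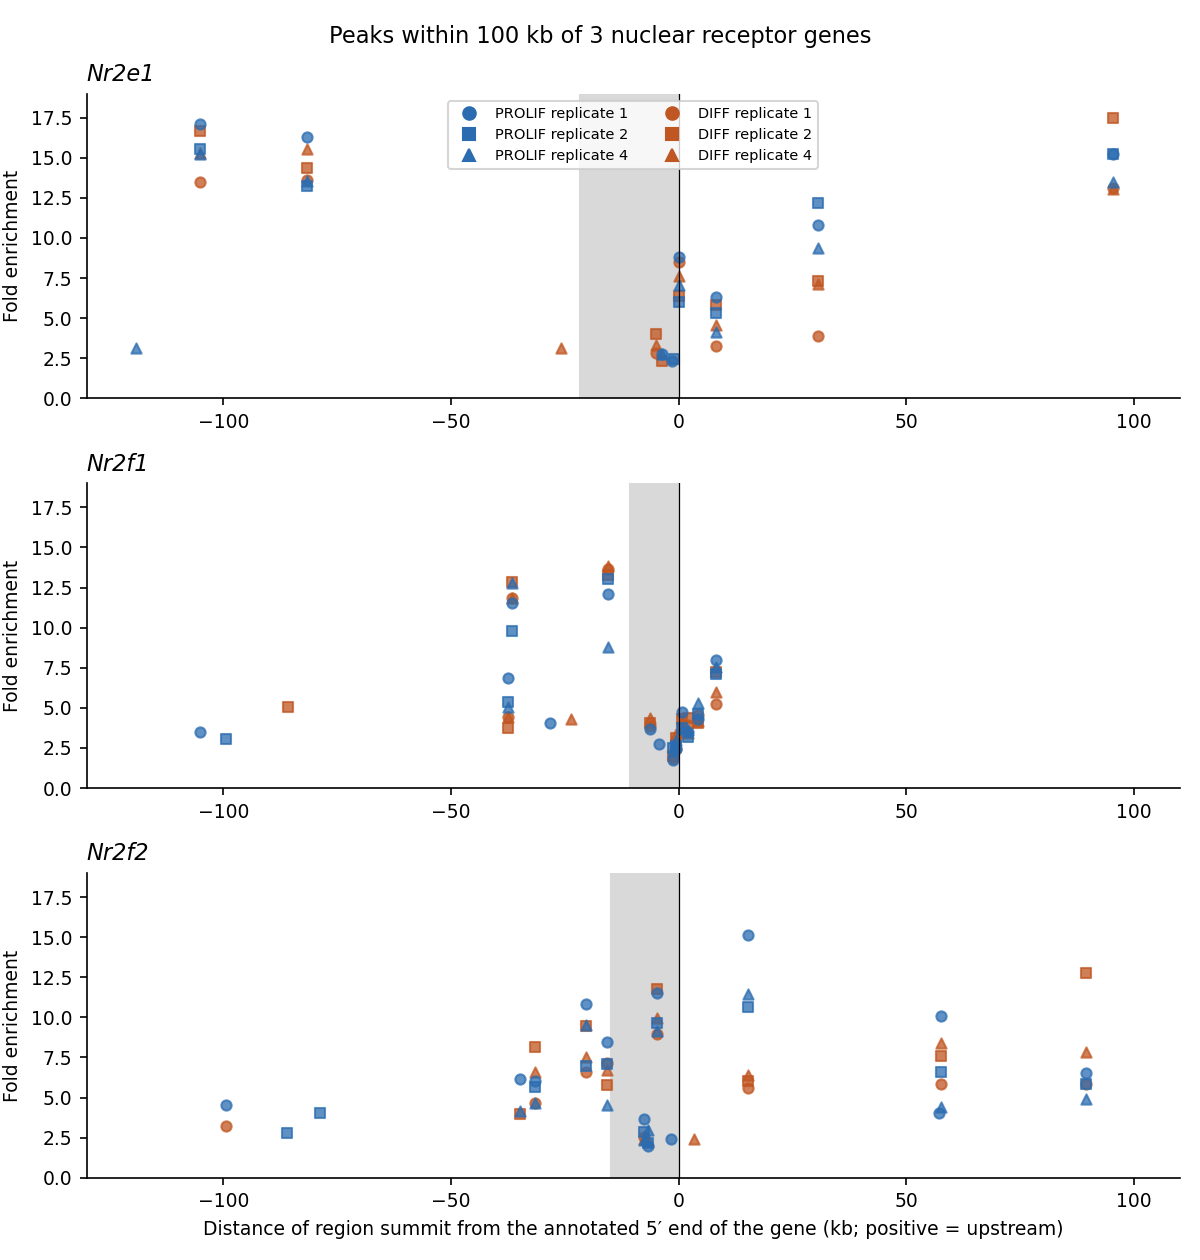
Fold enrichment of the best peak of each region in each library (y axis) against the distance of the region's summit from the annotated 5′ end of the gene in kb (x axis, positive upstream), for *Nr2e1*, *Nr2f1* and *Nr2f2*. Blue points are PROLIF and orange points DIFF libraries, shapes mark replicates 1, 2 and 4, and grey marks the gene body. Around the start of *Nr2f1* folds were low, at 1.73 to 4.74 within 3 kb of a start site.

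Of the 44 regions, 21 (47.7%) had a peak in all 6 libraries, against 33.5% of all regions, with 6 at *Nr2e1*, 8 at *Nr2f1* and 7 at *Nr2f2*. A peak in only 1 library was found at 15 regions (34.1%, against 29.6% of all regions), of which 6 were in PROLIF replicate 1. The libraries with the longest lists, PROLIF replicate 1 and DIFF replicate 4, held 28.4% and 30.2% of all regions seen in 1 library across the genome. No region of the 3 windows had a peak in every PROLIF and in no DIFF library, a pattern seen at 1.79% of all regions. The reverse, DIFF-only, was found at 1 region (2.27%), against 3.48% of all regions. The state-only shares rest on 0 and 1 region and say nothing particular about the 3 genes.

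**Figure D2:**
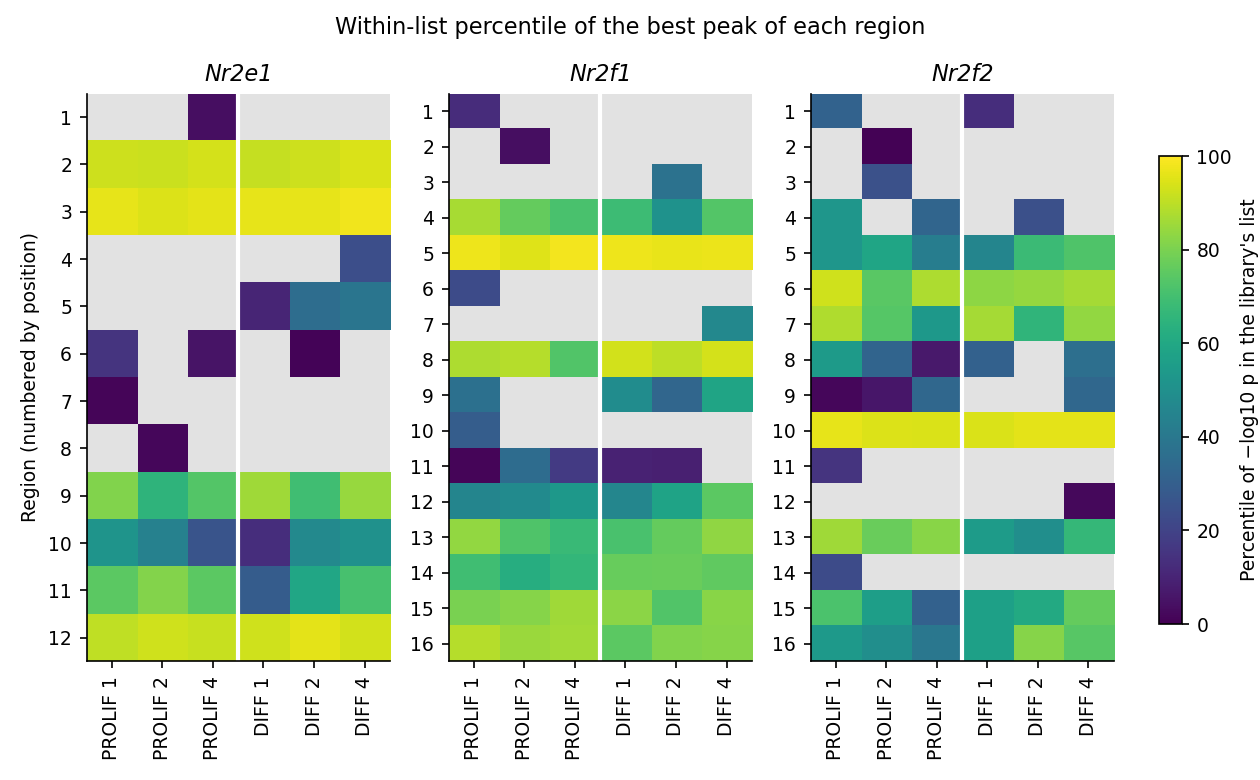
Occupancy of the 12 regions of *Nr2e1*, 16 of *Nr2f1* and 16 of *Nr2f2* (rows, numbered by position on the chromosome) in the 6 libraries (columns). Colour gives the within-list percentile of the best peak, and grey means no listed peak. The 21 regions filled in all columns include the strongest ones, and region 5 of *Nr2e1* is filled in DIFF libraries and in no PROLIF library.

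The DIFF-only region lay in an intron of *Nr2e1* (region 5, chromosome 10 from 42578336 to 42578664), 5008 bp downstream of the annotated 5′ end. Its fold enrichment was 2.84, 4.00 and 3.31 in DIFF replicates 1, 2 and 4. These were weak peaks, at percentiles 10.4, 35.6 and 38.9 of their lists. They rested on 17, 24 and 32 reads at the summit, with exact Poisson 95% intervals of 9.90 to 27.2, 15.4 to 35.7 and 21.9 to 45.2 reads that cover counting error only. With lists of equal length the region was no longer DIFF-only. Its sequence around the summit, at chr10:42578524-42578724, held none of the motifs searched and is shown as the only state-only region of the windows.

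Nr2e1 DIFF-only: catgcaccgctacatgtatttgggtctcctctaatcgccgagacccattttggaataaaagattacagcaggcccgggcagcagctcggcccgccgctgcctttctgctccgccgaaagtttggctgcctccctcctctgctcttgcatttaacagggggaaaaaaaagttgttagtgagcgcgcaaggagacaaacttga

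Near-misses of the same rule were found at the other genes. A region in an intron of *Nr2f1* (region 9, from 78193187 to 78193692) had a peak in all DIFF libraries, with folds of 3.89, 4.06 and 4.34, and in PROLIF replicate 1 alone of its state, at 3.65. A region over coding sequence of *Nr2f2* (region 9, from 70359949 to 70360287) had the opposite pattern, with peaks in all PROLIF libraries and in DIFF replicate 4. Its folds were low, from 2.01 to 2.95.

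The promoters were compared next. Within 3 kb of any annotated start site of the 3 genes there were 15 regions, of which 5 had a peak in all 6 libraries, 1 at *Nr2e1*, 3 at *Nr2f1* and 1 at *Nr2f2*. None of the 5 was called between states by limma, the test across all shared regions described below, which called 15.8% of them, so a count of 0 among 5 says little. GC content around the summit was 56.7% at the *Nr2e1* region, 79.1%, 50.75% and 58.2% at regions 12, 13 and 14 of *Nr2f1* and 69.65% at the *Nr2f2* region, against a median of 54.2% over all shared regions. Region 13 of *Nr2f1* was thus below that median and the others above it.

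Of the promoter regions missing from at least 1 library, 7 have not yet been described, and all had folds of 3.65 or less. By percentile, region 8 of *Nr2f2* reached 54.3 of its list in PROLIF replicate 1, and the others reached 35.2 or less. In introns of *Nr2e1*, region 6 (from 42579738 to 42580027) had folds of 2.78 and 2.75 in PROLIF replicates 1 and 4 and of 2.33 in DIFF replicate 2. Regions 7 (from 42582050 to 42582197) and 8 (from 42582463 to 42582568) had a peak in a single library each, at 2.33 in PROLIF replicate 1 and 2.46 in PROLIF replicate 2. Over coding sequence of *Nr2f1*, region 11 (from 78198094 to 78198611) was listed in every library except DIFF replicate 4, with folds from 1.73 to 2.47, and region 10 (from 78195108 to 78195499) in PROLIF replicate 1 alone, at 2.73. At *Nr2f2*, region 8 (from 70358671 to 70359245), in an exon, was listed in every library except DIFF replicate 2, with folds from 2.36 to 3.65. Region 11 (from 70364968 to 70365057), in an intron of *Nr2f2* and an exon of *B130024G19Rik*, was listed in PROLIF replicate 1 alone, at 2.41.

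At the *Nr2e1* promoter (region 9, from 42583027 to 42584428) fold enrichment was 8.84, 6.03 and 7.06 in PROLIF and 8.48, 6.36 and 7.66 in DIFF replicates 1, 2 and 4. The states overlapped throughout, with means of 7.31 ± 1.42 and 7.50 ± 1.07 (SD, n = 3) and a log2 difference of 0.11 ± 0.18 (SE; limma, adjusted p = 0.743). Summits of the 6 libraries lay within 30 bp of each other. Because *Nr2e1* and a start site of *Ostm1* share this region, which of them it serves cannot be told apart. *Ostm1* also has an inner start site, 14 bp from the summit of region 12. Folds there were higher, at 13.0 to 17.5, with percentiles from 90.5 to 95.7.

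At *Nr2f1* the shared promoter regions were region 12 in the 5′ untranslated part of the gene, region 13 at the run shown above, with its summit 724 bp upstream of the annotated 5′ end, and region 14, at 2023 bp upstream. In region 13 (from 78200330 to 78200781) fold enrichment was 4.74, 3.74 and 3.65 in PROLIF and 3.47, 4.29 and 4.20 in DIFF. The groups overlapped (log2 difference 0.08 ± 0.17, SE; limma, adjusted p = 0.798). Region 12 (from 78199016 to 78199551) had folds from 2.43 to 3.39 and region 14 (from 78201636 to 78202041) from 3.20 to 4.36, with log2 differences of 0.22 and 0.30 and limma adjusted p of 0.381 and 0.261.

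These low folds at *Nr2f1* went with a high local background. The median local background of its promoter peaks was 6.70 to 9.16 times the background pileup of the same library, against 1.82 to 2.48 times at *Nr2e1* and 3.81 to 4.75 times at *Nr2f2*. In region 13 the pileup at the summit was 73 to 176 reads over a local background of 19.3 to 41.2 reads. At the *Nr2e1* promoter it was 41 to 106 reads over 5.23 to 13.0 reads. By pileup the *Nr2f1* promoter was therefore above that of *Nr2e1* in every library, while by fold it was below it in every library. The part of the local background in these folds was not tested further.

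**Figure D3:**
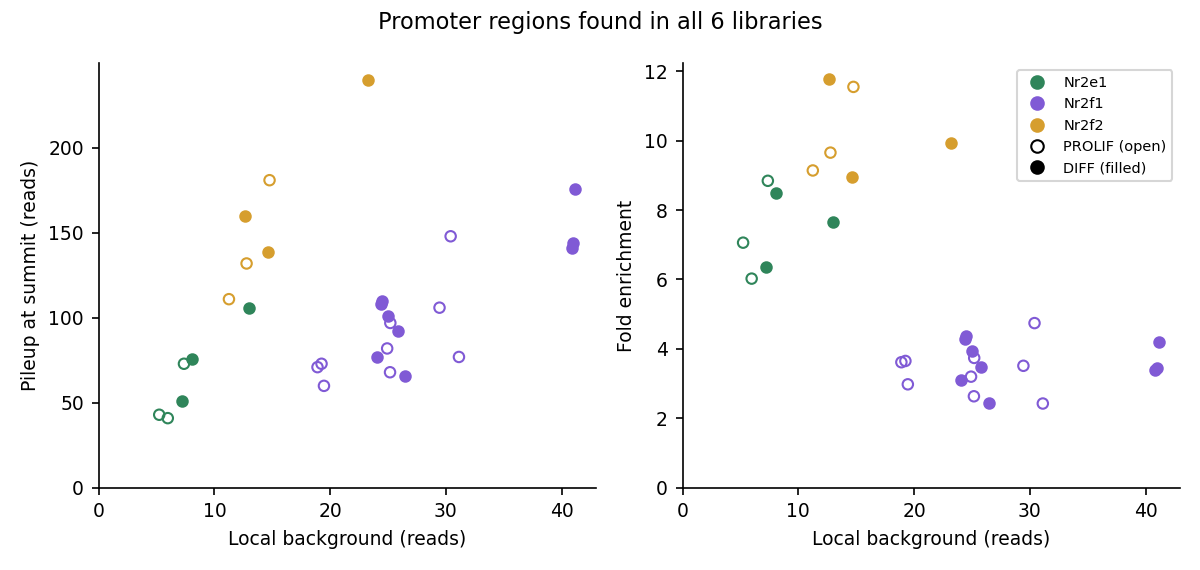
Pileup at the summit in reads (left) and fold enrichment (right) against the local background in reads, for the 5 promoter regions found in all 6 libraries. Each point is a region in a library, open for PROLIF and filled for DIFF, and colours mark the gene. Points of *Nr2f1* lie to the right, with a local background of 18.9 to 41.2 reads, and have folds under 5.

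At *Nr2f2* the shared promoter region (region 10, from 70360860 to 70362285) was the strongest promoter of the 3 genes. Fold enrichment was 11.5, 9.65 and 9.14 in PROLIF and 8.95, 11.8 and 9.94 in DIFF replicates 1, 2 and 4. The means were 10.1 ± 1.27 and 10.2 ± 1.43 (SD, n = 3), with a log2 difference of 0.05 ± 0.11 (SE; limma, adjusted p = 0.809), and summits lay within 19 bp of each other. The summit was 4883 bp downstream of the annotated 5′ end of *Nr2f2* and 1259 bp upstream of the nearest start site, that of a shorter transcript. At the RefSeq promoter window of *Nr2f2*, around the outer start site (from 70366697 to 70366996), no library had a peak. The RefSeq windows of *Nr2e1* (from 42583541 to 42583840) and of 1 of 2 *Nr2f1* starts (from 78198824 to 78199123) overlapped a peak in all 6 libraries, and that of the other *Nr2f1* start overlapped none.

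Taking the best promoter peak of a gene in each library, *Nr2f2* ranked between percentiles 94.3 and 96.2, *Nr2f1* between 67.7 and 83.6 and *Nr2e1* between 65.1 and 85.6. *Nr2f2* stood above the others in every library, and the ranges of *Nr2f1* and *Nr2e1* overlapped. The mean percentile of *Nr2f2* was above that of 80.6% of the 14126 protein-coding genes with a promoter peak in all 6 libraries, against 28.5% for *Nr2f1* and 27.9% for *Nr2e1*. The genes most like *Nr2f1* and *Nr2f2*, by the mean absolute difference of percentiles over the 6 libraries, were *Mtss1l*, *Cfap43* and *Eef1a2* for the former (1.05 to 1.31 percentile points) and *Clasp2*, *Dexi* and *Clec16a* for the latter (0.278 to 0.289). *Dexi* and *Clec16a* had the same values.

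To ask which regions differed in strength between PROLIF and DIFF, log2 fold enrichment was compared over the 40102 regions with a peak in all 6 libraries. Limma with quantile normalization called 15.8% of them at an adjusted p of 0.05, 6.92% higher and 8.9% lower in DIFF. Without normalization between libraries the split moved from 2774 higher and 3569 lower to 1005 and 2626. In the windows 3 of 21 shared regions (14.3%) were called, 1 higher and 2 lower, a share close to the background. The median log2 difference was 0.05 over the 21 regions and 0.03 over all shared regions. All 3 called regions lay over 3 kb from the start sites of the members. They were 1 of 6 shared regions at *Nr2e1*, 0 of 8 at *Nr2f1* and 2 of 7 at *Nr2f2*, and the difference between the genes was not tested.

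**Figure D4:**
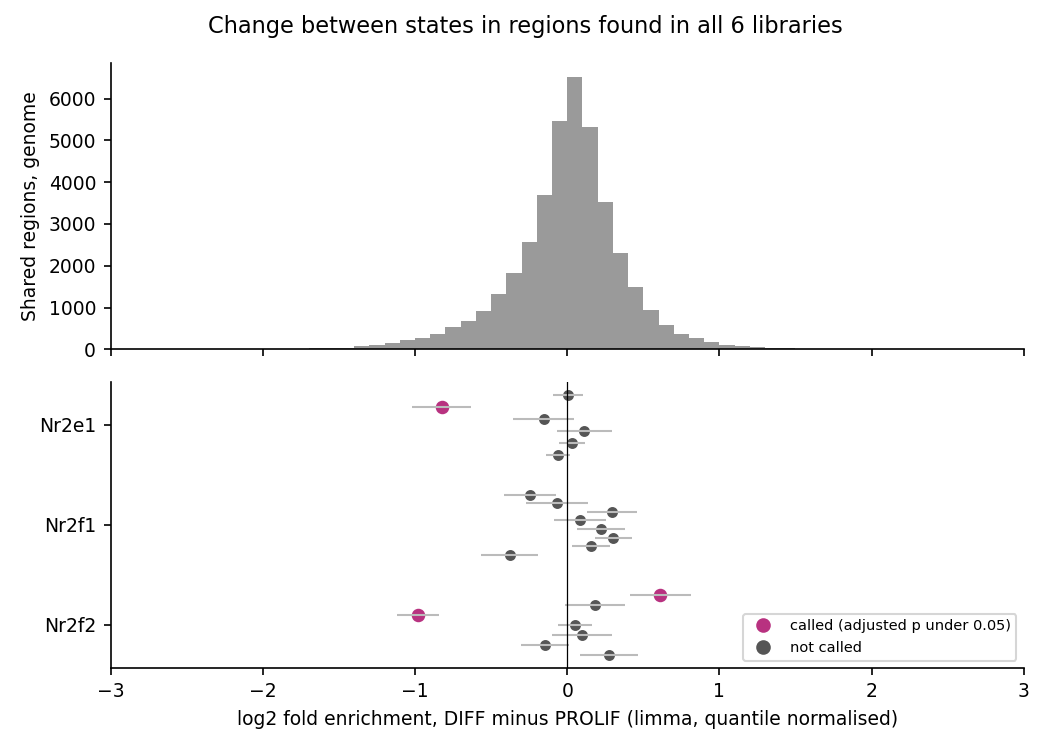
Log2 fold enrichment in DIFF minus PROLIF (x axis) for all 40102 shared regions as a histogram (top, number of regions per bin of 0.1) and for the 21 shared regions of *Nr2e1*, *Nr2f1* and *Nr2f2* (bottom). Points are limma estimates with bars of 1 SE, and pink marks regions called at an adjusted p of 0.05. Of the 21 regions, 18 lie between -0.38 and 0.30.

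The largest change was a lower fold enrichment in DIFF upstream of *Nr2f2* (region 13, chromosome 7 from 70381771 to 70382307). The region lies 15131 bp upstream of the annotated 5′ end, in introns of the non-coding *B130024G19Rik* and *Gm28258*. Fold enrichment was 15.2, 10.7 and 11.4 in PROLIF and 5.61, 6.06 and 6.42 in DIFF replicates 1, 2 and 4. Every PROLIF library was above every DIFF library, a separation in this direction seen at 14.3% of all shared regions. The means were 12.4 ± 2.41 and 6.03 ± 0.405 (SD, n = 3), a log2 difference of -0.98 ± 0.14 (SE; limma, adjusted p = 9.27e-05). The summits of the 6 libraries lay within 8 bp of each other. They rested on 41 to 64 reads in PROLIF and on 25, 23 and 44 reads in DIFF replicates 1, 2 and 4. DIFF replicate 4 had a background pileup of 6.01 reads, against 2.85 to 3.63 reads in the other libraries.

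A second region called lower in DIFF lay 30594 bp upstream of *Nr2e1* (region 11, chromosome 10 from 42613918 to 42614508), in an intron of *Ostm1*. Fold enrichment was 10.8, 12.2 and 9.36 in PROLIF and 3.88, 7.33 and 7.13 in DIFF. The groups did not overlap, and DIFF replicate 1 was the lowest. The means were 10.8 ± 1.41 and 6.11 ± 1.93 (SD, n = 3), a log2 difference of -0.83 ± 0.19 (SE; limma, adjusted p = 0.00638). Without DIFF replicate 1 it was -0.57 (limma, adjusted p = 0.0264). The call was lost when percentiles replaced fold enrichment (limma, adjusted p = 0.126). The nearest protein-coding start site was that of *Ostm1*, at 30388 bp, so its tie to *Nr2e1* rests on the window alone.

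The region called higher in DIFF lay 89479 bp upstream of *Nr2f2* (region 16, chromosome 7 from 70455769 to 70456788), in an intron of *B130024G19Rik*. Fold enrichment was 6.55, 5.84 and 4.94 in PROLIF and 5.83, 12.8 and 7.84 in DIFF. DIFF replicate 1 lay within the PROLIF range and DIFF replicate 2 was far above it. The log2 difference was 0.61 ± 0.20 (SE; limma, adjusted p = 0.0436). This call did not hold without normalization (limma, adjusted p = 0.188), by percentile (0.0913), or in 5 of the 6 fits that each left out 1 library, with an adjusted p of 0.0913 without PROLIF replicate 1, 0.0734 without PROLIF replicate 2, 0.0937 without PROLIF replicate 4, 0.264 without DIFF replicate 2 and 0.0915 without DIFF replicate 4. Without DIFF replicate 1 it did (limma, adjusted p = 0.0107, log2 difference 0.83).

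**Figure D5:**
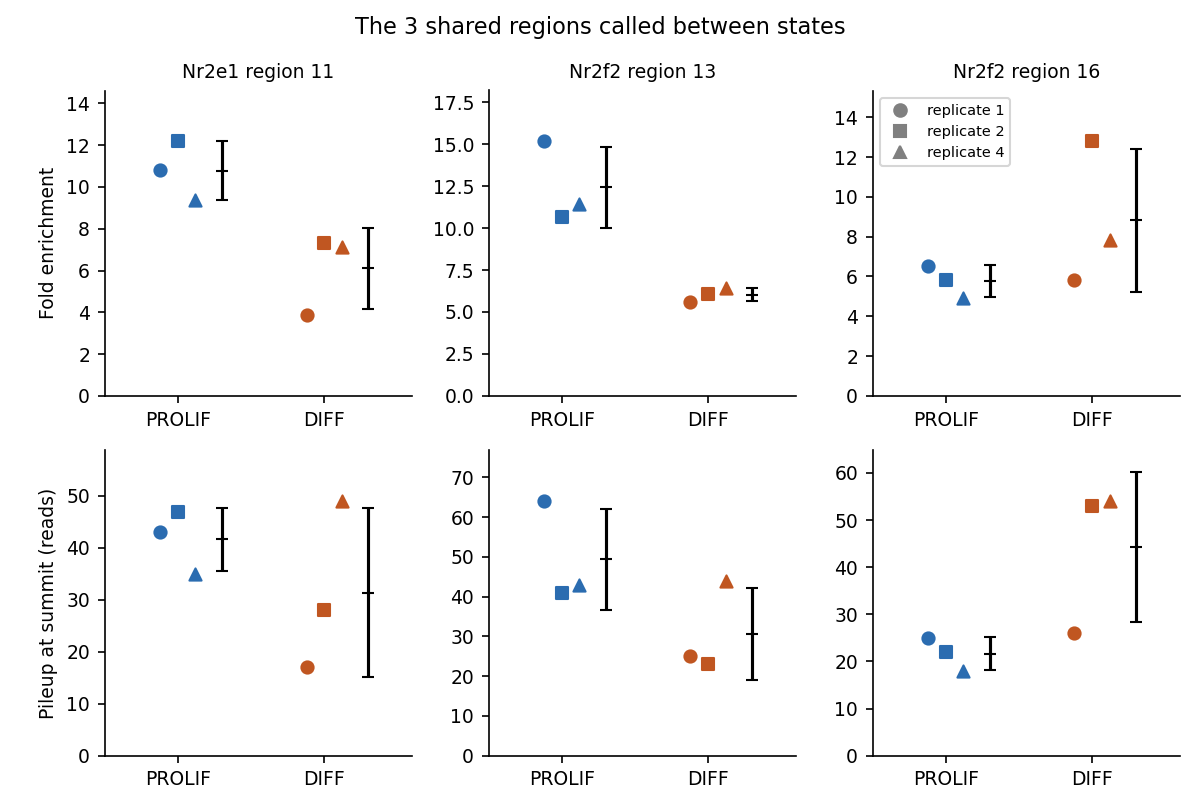
Fold enrichment (top, y axis) and pileup at the summit in reads (bottom, y axis) in the 3 PROLIF and 3 DIFF libraries for the regions called by limma. Points are libraries, with shapes for replicates 1, 2 and 4, and black bars give the mean and SD. Fold enrichment separates the states at region 11 of *Nr2e1* and region 13 of *Nr2f2* and overlaps at region 16 of *Nr2f2*.

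The sequences of the called regions are given for the 201 bases around the summit, on the plus strand, because they carry the changes between states. They lie at chr10:42614126-42614326, chr7:70381766-70381966 and chr7:70456114-70456314. Capitals mark motif matches, which are the AGGTCA site of nuclear receptors (as TGACCT), SOX sites (ACAAAG or ACAATG, as CTTTGT or CATTGT) and the E-box CAGCTG.

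Nr2e1 region 11: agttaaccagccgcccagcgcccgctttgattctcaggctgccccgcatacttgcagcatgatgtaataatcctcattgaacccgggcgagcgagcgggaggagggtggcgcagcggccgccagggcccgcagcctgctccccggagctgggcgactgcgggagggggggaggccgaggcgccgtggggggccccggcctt

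Nr2f2 region 13: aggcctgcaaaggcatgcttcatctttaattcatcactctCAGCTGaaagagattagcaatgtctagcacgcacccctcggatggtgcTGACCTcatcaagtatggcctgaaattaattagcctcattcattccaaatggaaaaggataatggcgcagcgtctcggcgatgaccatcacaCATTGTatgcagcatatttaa

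Nr2f2 region 16: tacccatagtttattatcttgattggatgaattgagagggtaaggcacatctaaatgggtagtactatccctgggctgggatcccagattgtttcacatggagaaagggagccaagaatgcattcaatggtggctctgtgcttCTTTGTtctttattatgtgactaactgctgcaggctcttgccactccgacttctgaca

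Region 13 of *Nr2f2* held 3 motifs, AGGTCA, a SOX site and CAGCTG. Each alone was common, present in 9.01%, 26.0% and 21.0% of all shared regions and in 15.4%, 39.0% and 38.2% of those called lower in DIFF. Region 16 of *Nr2f2* held a SOX site, and region 11 of *Nr2e1*, with a GC content of 70.7%, held none of the motifs. Over the 21 shared regions, AGGTCA was found in 2, AAGTCA, the site bound by TLX, in 1, the SOX sites in 5, CAGCTG in 4 and TTGGCA, bound by NFI factors, in 2. Over all shared regions, AAGTCA was present in 8.64% and TTGGCA in 17.0%. The AP-1 sites TGACTCA and TGAGTCA, present in 4.55% of all shared regions and 16.4% of those called lower in DIFF, were found in 0 of 21, as was the E-box CAGATG, present in 14.6%. A direct repeat of AGGTCA with 1 base between occurred in 0 of the 44 regions and in 0.0125% of all regions. Both strands were searched, CAGATG and CAGCTG were counted apart, and a missing motif says only that these letters are not within 100 bp of the summit.

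The other shared regions were not called, with limma adjusted p from 0.0962 to 0.989. In the *Nr2e1* window 3 of them were promoters of its neighbours. Region 2 lay 7 bp from a start site of *Afg1l*, region 3 lay 43 bp from that of *Snx3* in its untranslated part, and region 12 lay 14 bp from an inner start site of *Ostm1*. They had folds from 13.0 to 17.5 and log2 differences of -0.06, 0.03 and 0.00, and ranked above the *Nr2e1* promoter in every library. Region 10, 8204 bp upstream of *Nr2e1*, had folds from 3.24 to 6.30.

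By percentile, the strongest region around *Nr2f1* was not at its promoter. It lay 36560 bp downstream of the annotated 5′ end (region 5, from 78162854 to 78164004), in introns of *Fam172a* and of the antisense transcript *Gm38604*. It ranked between percentiles 95.1 and 98.3, with folds of 11.4 ± 1.52 in PROLIF and 12.2 ± 0.556 in DIFF (SD, n = 3; log2 difference 0.16, limma, adjusted p = 0.459). By fold, region 8 stood above it in every library except PROLIF replicate 4. A separate region beside it (region 4, from 78162090 to 78162482) had folds of 6.88, 5.36 and 5.04 in PROLIF and 4.42, 3.73 and 4.41 in DIFF. Its groups did not overlap, but the log2 difference of -0.38 ± 0.19 was not called (SE; limma, adjusted p = 0.195).

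Between them and the gene, region 8 of *Nr2f1* (from 78183045 to 78184472) had folds of 12.1, 13.0 and 8.82 in PROLIF and 13.6, 13.3 and 13.9 in DIFF. Every DIFF library was above every PROLIF library, a separation seen in this direction at 7.19% of all shared regions, and PROLIF replicate 4 was the lowest. The log2 difference of 0.30 ± 0.12 missed the threshold (SE; limma, adjusted p = 0.0962), which it passed without PROLIF replicate 2 (0.0164, log2 difference 0.45). In all, the states did not overlap at 3 of the 21 shared regions with DIFF lower and at 1 with DIFF higher, against 14.3% and 7.19% of all shared regions, so the counts are those of the background or below it. Upstream of *Nr2f1*, regions 15 and 16 at 4167 and 8200 bp had folds from 4.06 to 5.33 and from 5.26 to 7.96, with log2 differences of -0.07 and -0.25. When the pileup at the summit was compared in place of the fold, an alternative added after seeing the data, regions 4, 8 and 16 of *Nr2f1* were called, with log2 differences of -0.68, 0.53 and -0.53 (limma, adjusted p = 0.00351, 0.0282 and 0.00388). The directions were those seen by fold. Calls also rose across the genome, with 27.1% of all regions tested called by pileup. In the windows 28.6% (6 of 21) were called, a share close to the background.

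Around *Nr2f2*, which has no protein-coding neighbour in its window, the uncalled distal regions were 5, 6, 7 and 15. Regions 6 and 7 lay 20.3 and 15.7 kb downstream of the annotated 5′ end, just past the other end of the gene, with folds from 6.61 to 10.8 and from 4.53 to 8.49. Region 6 had summits within 34 bp of each other. Region 5, 31.7 kb downstream in an intron of the non-coding *Gm29683*, had folds from 4.66 to 8.17. Region 15, 57.6 kb upstream, had folds from 4.42 to 10.1, and the spread within PROLIF, 7.03 ± 2.85 (SD, n = 3), was larger than its difference from DIFF, 7.27 ± 1.32.

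Lastly, promoters of related genes were counted. Of 49 nuclear receptor genes, 39 (79.6%) had a promoter peak in all 6 libraries and 6 had none in any library, against 64.4% and 25.4% of all protein-coding genes. The 6 were *Nr1h4*, *Nr1h5*, *Nr1i2*, *Nr1i3*, *Hnf4a* and *Nr0b2*, named after their values were seen and mostly known from liver and gut. No nuclear receptor gene was PROLIF-only or DIFF-only, and *Vdr*, *Hnf4g*, *Esr2* and *Nr5a1* had a promoter peak in some libraries of both states. Within the NR2 subfamily, the testicular receptor *Nr2c2* ranked between percentiles 96.0 and 98.5 and its relative *Nr2c1* between 71.8 and 85.9, *Nr2f6* ranked between 89.2 and 93.8, just below *Nr2f2*, and the photoreceptor gene *Nr2e3* between 54.0 and 73.5. All 10 genes of listed partners, among them the corepressors *Hdac3*, *Hdac5*, *Kdm1a* and *Atn1* of TLX and *Bcl11a*, *Bcl11b* and *Zfpm2* of the COUP-TFs, had a promoter peak in all 6 libraries. A promoter peak here is any peak within 3 kb of an annotated start site. It need not cover that site, as at *Nr2f2*, and it does not say that the gene was expressed or bound.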

How the data were processed

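Peak lists of 3 PROLIF and 3 DIFF *Srr2*del/del libraries were grouped by the labelled state and replicate number. Before deposit, the authors removed adapters (Cutadapt) and low-quality bases (Trimmomatic), aligned read pairs to GRCm38 using Bowtie2, flagged duplicates by Picard and ran MACS2 with no model on each library, keeping narrow peaks that passed a false discovery rate of 0.05. Versions, read extension, transposase shift and blacklist are not given in the sources used here, and each can move peak edges. The deposited fold enrichment is a ratio to the local background. The deposited −log10 p and q and the deposited score (from q) use the same background.

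The series text gives 3 DIV for proliferating cultures where the labels give 2 DIV, and the labels were followed. The series describes biological replicates, and the source of each culture is not stated, so p-values measure the spread between these libraries.

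Only assembled chromosomes were used. Pileup and background were solved from fold and p under a Poisson model, for at least 99.4% of peaks, and came back whole (within 0.05 reads) for at least 99.99% of those. Background is percentile 1 of a library's local backgrounds. Shared regions were tested with limma 3.58.1 (R 4.3.3, trend, quantile-normalised log2 fold of the best peak per region) with Benjamini-Hochberg adjustment at 0.05. The method was run on simulated data with planted shifts larger than those called in the windows. That run cannot show how the method does with smaller shifts. Only regions with a peak in all 6 libraries entered, so losses to below the threshold were not tested. Single values were compared by two-sided exact permutation. Annotation was GENCODE M21 and sequences came from RefSeq's GRCm38.p6. Motifs were searched in 201 bp. Python 3.11.15 was used.

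The members, gene lists and tests were chosen with earlier results of these data known. Named were all promoter, state-only and called regions, and up to 5 further shared regions per gene whose lowest percentile was highest, which covered all 21 shared regions. Alternatives were a q of 0.01, lists of equal length, each library left out, windows of 50 kb, a cover of 50%, promoters of 1 kb, no normalization, percentiles and a replicate block, with summit pileup added after seeing the data. The genes most like *Nr2e1* and a list of TLX targets are not reported here.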

Additional observations from a re-analysis of the deposited data

How the results depend on the processing

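The 21 regions in all 6 libraries and the 39 nuclear receptor genes with a promoter peak in all 6 stayed within 1.5 times under every alternative tried for them. The 21 regions fell to 15 with a cover of 50% and to 16 in windows of 50 kb, and numbered 20 to 22 otherwise. The 39 genes numbered 37 to 41. The differences in peaks per window could not pass the threshold in this design, and their values moved, from -0.333 to 0.333 at *Nr2e1*, from -2.67 to -0.167 at *Nr2f1* and from -3.17 to -1 at *Nr2f2* over all alternatives. Sums of few regions moved. DIFF-only regions fell from 1 to 0 with lists of equal length and with a cover of 50%, and numbered 1 to 2 when each library was left out. PROLIF-only regions, 0 in all libraries, numbered 0 to 1 when each library was left out. Shared regions higher in DIFF fell from 1 to 0 without normalization, by percentile and in windows of 50 kb, and numbered 0 to 1 when each library was left out, region 8 of *Nr2f1* being the called one without PROLIF replicate 2. Those lower in DIFF numbered 2 in every fit that left out 1 library, fell to 1 by percentile and rose to 4 by summit pileup, where 2 were higher and the added calls were regions 4, 8 and 16 of *Nr2f1*. Over all regions tested, calls by pileup rose from 2774 to 5349 higher and from 3569 to 5380 lower in DIFF. Why percentile and pileup differ from fold was not tested. The call at region 13 of *Nr2f2* held in all 12 alternatives (limma, adjusted p from 7.63e-06 to 0.0346), that at region 11 of *Nr2e1* in 11 (0.000297 to 0.126) and that at region 16 of *Nr2f2* in 5 (0.0107 to 0.264).

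Promoter regions near 0 changed sign without being called. The log2 difference at region 9 of *Nr2e1* was -0.0067 without PROLIF replicate 2 and ran from -0.026, without DIFF replicate 1, to 0.288 over the fits that left out 1 library. At region 13 of *Nr2f1* it was -0.0184 without normalization and -0.11 by pileup, and at region 10 of *Nr2f2* -0.0244 by pileup.

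Replicates share numbers between states. Same-numbered libraries had correlations of 0.0733, 0.122 and 0.104 between their deviations from the state mean, and libraries of unlike number from -0.0914 to -0.00344. Every library thus correlated best with its own number. Deviations from a state mean cancel out over its libraries, so a positive value at the same number by itself pulls the other values to negative. How much of the contrast this made was not tested. The labels do not state whether same-numbered libraries came from the same culture, and the numbers were not taken as pairs in the main tests. Under the replicate block PROLIF-only regions numbered 1 and DIFF-only regions 2, by a rule that asks for fewer libraries. The 3 limma calls held under the block, and the peaks per window gave an exact sign-flip p of 1, 1 and 0.5 for *Nr2e1*, *Nr2f1* and *Nr2f2*, where 0.25 is the smallest possible. What depth contributes to the 15 regions listed in 1 library was not tested.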

Other observations

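Replicate 1 was compared with the other replicates of its state in the 1 Mb around each gene, since that library pair can hold raised shares of peaks elsewhere on chromosome 10. From 42000001 to 43000000 on that chromosome, around *Nr2e1*, the share of a list's peaks in replicate 1 was 1.03 times the mean of the other replicates in PROLIF and 1.02 times in DIFF. Around *Nr2f2* (from 70000001 to 71000000 on chromosome 7) the ratios were 1.01 and 0.951, and around *Nr2f1* (from 78000001 to 79000000 on chromosome 13) 1.14 and 0.905. Each ratio compares 1 library with 2, with no test.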
